A study of Mus musculus with 6 samples.

Results

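The 40 genes described here are expressed in a wave during the cell division cycle: 20 in S phase, when DNA is copied (Mcm2 to Slbp), and 20 in G2 and M phase, when chromosomes condense and are pulled apart (Mki67 to Hmmr). They were taken by symbol from the deposited gene table, in which each had a single row among 22475 genes. All 40 were also among the 13217 genes counted well enough to be tested. RNA had been sequenced from Lin- cKit+ Sca1+ cells of mouse bone marrow, a sorted fraction that holds the stem cells and early progenitors of blood. All mice carried FLT3-ITD on both alleles, a duplication within the gene of the receptor tyrosine kinase FLT3 that leaves it constantly active. The control group (labelled WT-Flt3) had wild type miR-155, and the other group (labelled KO-Flt3, below KO) had a homozygous deletion of this microRNA. There were 3 libraries a group, each from the combined RNA of 3 mice, so SDs and p-values measure the spread between pools. The sources used here give no strain or age and do not say how the FLT3-ITD allele was made.

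Before replication, the MCM helicase is loaded onto origins by Cdc6 and Cdt1, and it is switched on when Cdc45 and the GINS complex join it. E2F transcription factors, released from the retinoblastoma protein by cyclin-dependent kinases, drive these S phase genes. The genes of G2 and M phase follow later under the DREAM, B-Myb and FoxM1 complexes, with Cdk1 and its A and B cyclins at the centre. In marrow, stem cells are mostly quiescent while the progenitors that share their surface markers divide often, so these RNAs serve as a common readout of how much of a sorted population is cycling.

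Neither set of genes differed detectably between the groups. Of the 40 genes, 0 passed an adjusted p of 0.05 in edgeR's quasi-likelihood test, against 0.159% of all genes tested, and 2 (Pcna and Cenpf) had an unadjusted p under 0.05, against 3.9% of all genes. DESeq2 and limma-voom also called 0, with 1 and 2 genes under an unadjusted 0.05. In the authors' deposited table, too, 0 of the 40 were called, against 0.639% of the genes with an adjusted p there: their log2 fold changes ran from -0.27 to 0.31 and each had an adjusted p of 0.99994. The median log2 fold change, KO over control, was 0.036 for the S phase genes, -0.0098 for the G2 and M phase genes and 0.00096 for all genes tested. Signs were evenly split, with 12 of 20 S phase and 8 of 20 G2 and M phase genes above 0, and 34 of the 40 lay within 0.1 of it on the log2 scale.

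The 95% interval of the fold change stayed within 1.5-fold in either direction for 39 of the 40 genes, against 8071 of the 13217 genes tested. The exception was Ccne1, whose interval ran from 0.832-fold to 1.84-fold. For the other 39 no interval reached below 0.714-fold (Cenpf) or above 1.36-fold (Rrm2). The intervals are for each gene on its own and rest on 3 pools a group.

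**Figure D1:**
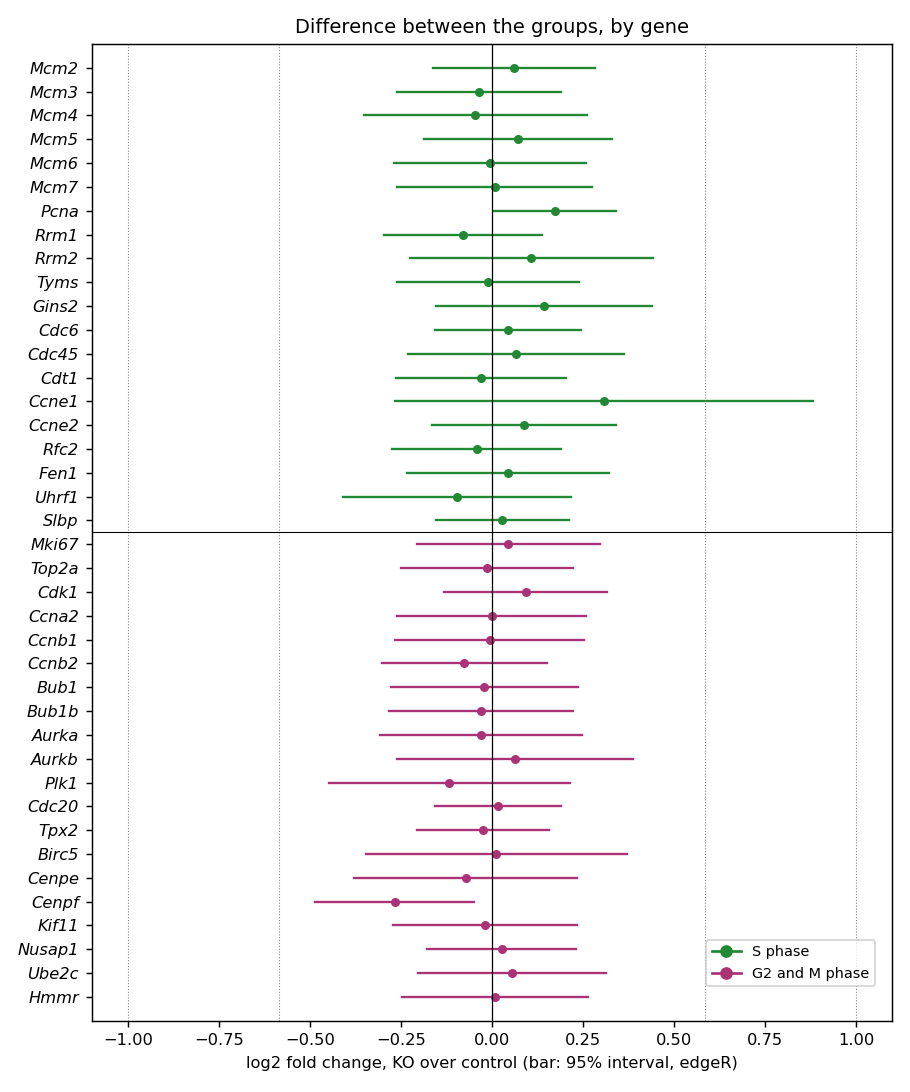
Log2 fold change of each gene, KO over control, as a point with its 95% interval from edgeR (horizontal axis), in S phase (green, above the line) and G2 and M phase genes (purple, below). Dotted lines mark 1.5-fold and 2-fold. Intervals of 38 genes include 0; those of Pcna (0.0048 to 0.34) and Cenpf (-0.49 to -0.049) do not, and neither gene passed after adjustment.

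The promoters were searched for short motifs known from cell cycle genes. RefSeq promoters (GRCm38.p6, 250 bases before to 50 after each annotated start) matched 33 of the 40 symbols, with none for Mcm4, Gins2, Ccne2, Rfc2, Ccna2, Aurkb and Tpx2. The search covered both strands for an E2F motif (TTTGGCGC, TTTCGCGC, TTTCCCGC or TTTGCCGC), the cell cycle homology region or CHR (TTTGAA or TTTAAA), which is known as the DREAM and B-Myb binding element, and the CCAAT box bound by NF-Y. The promoters of 4 genes are shown, chosen as the highest expressed S phase gene with an E2F match, the highest expressed G2 and M phase gene with both a CHR and a CCAAT match, and the 2 genes whose groups did not overlap. Matches are in capitals, the rest in lower case, and each runs 5′ to 3′ on the minus strand, where all 4 genes lie.

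Mcm6, chr1:128359656-128359955: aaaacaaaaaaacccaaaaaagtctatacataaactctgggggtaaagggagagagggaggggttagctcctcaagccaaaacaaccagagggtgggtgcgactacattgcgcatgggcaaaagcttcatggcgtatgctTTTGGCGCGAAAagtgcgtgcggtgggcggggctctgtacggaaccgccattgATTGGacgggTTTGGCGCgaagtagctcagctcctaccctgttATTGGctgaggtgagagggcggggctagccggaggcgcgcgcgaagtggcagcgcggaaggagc
Top2a, chr11:99024140-99024439: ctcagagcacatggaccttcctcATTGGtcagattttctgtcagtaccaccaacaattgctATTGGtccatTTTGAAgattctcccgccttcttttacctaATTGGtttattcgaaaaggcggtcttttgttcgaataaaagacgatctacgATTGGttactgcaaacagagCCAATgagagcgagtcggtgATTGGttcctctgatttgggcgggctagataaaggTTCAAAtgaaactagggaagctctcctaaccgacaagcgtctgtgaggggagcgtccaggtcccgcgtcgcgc
Pcna, chr2:132253131-132253430: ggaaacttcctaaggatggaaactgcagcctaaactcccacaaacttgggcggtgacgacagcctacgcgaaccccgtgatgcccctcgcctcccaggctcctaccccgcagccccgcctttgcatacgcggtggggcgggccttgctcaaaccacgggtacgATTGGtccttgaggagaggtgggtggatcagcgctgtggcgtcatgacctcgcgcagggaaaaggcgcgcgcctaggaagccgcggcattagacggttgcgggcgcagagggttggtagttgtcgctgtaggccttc
Cenpf, chr1:189688037-189688336: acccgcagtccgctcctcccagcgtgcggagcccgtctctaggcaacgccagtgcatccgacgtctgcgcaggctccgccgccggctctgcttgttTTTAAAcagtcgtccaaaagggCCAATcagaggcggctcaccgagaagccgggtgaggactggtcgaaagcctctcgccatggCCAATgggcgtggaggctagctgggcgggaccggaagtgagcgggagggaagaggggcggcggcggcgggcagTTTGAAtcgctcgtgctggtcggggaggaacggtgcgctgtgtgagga

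In Mcm6 the E2F matches began 110, 106 and 47 bases before the start, the first pair overlapping on opposite strands, with CCAAT boxes 57 and 14 bases before it. Top2a had no E2F match, 6 CCAAT boxes and CHR matches 179 and 23 bases before the start. Cenpf had CHR matches 154 bases before and 2 bases after the start, and in Pcna a single CCAAT box, 87 bases before it, was the only match. Over all genes with a promoter, an E2F match was present for 7 of 16 S phase genes (Mcm3, Mcm5, Mcm6, Mcm7, Cdc6, Cdt1 and Uhrf1) and 1 of 17 G2 and M phase genes (Cdk1), against 2.6% of all 27025 genes with a promoter in the table (2.26% of its 32851 promoters). A CHR match was present for 15 of 17 G2 and M phase genes and 7 of 16 S phase genes, against 30.6% of all genes (27.6% of promoters). CCAAT boxes were found in 15 of 17 and 11 of 16, against 41.1% (37.4% of promoters). The difference between the sets was not tested. In the shorter window from 100 bases before the start, the E2F counts were 4 S phase and 0 G2 and M phase genes (1.45% of all genes) and the CHR counts 5 and 14 (14.7%). A match is a stretch of letters and was not tested for binding, and its absence says nothing of the factor.

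**Figure D2:**
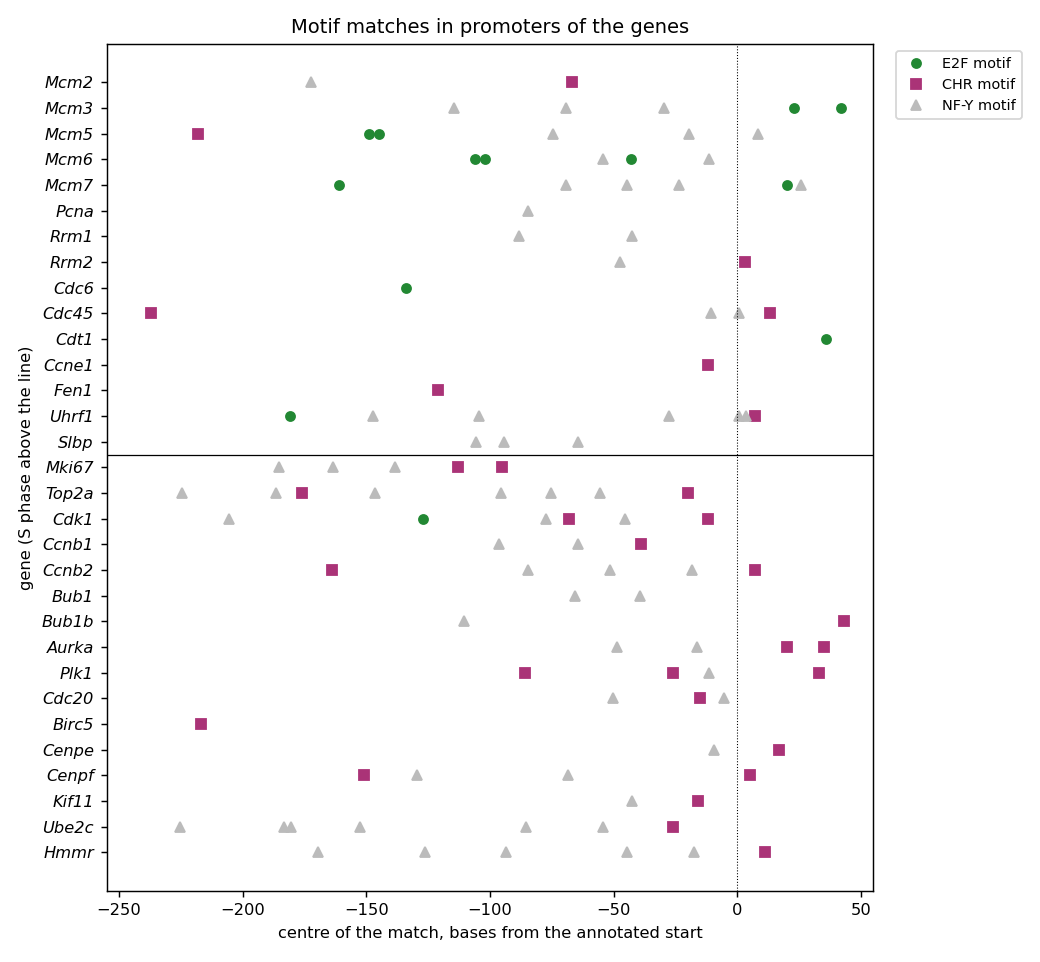
Centre of each motif match relative to the annotated start (horizontal axis, in bases) for the genes with at least 1 match, S phase genes above the line and G2 and M phase genes below. E2F matches (green circles) lie in 7 S phase genes and in Cdk1, and CHR matches (purple squares) in 15 of the 17 G2 and M phase genes; NF-Y motifs (grey triangles) are CCAAT boxes.

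The cells expressed these genes strongly. FPKM, the deposited level scaled for transcript length and library size, had a median of 45.5 over the 40 genes and 10.1 over all genes tested, and 30 of the 40 lay above the 75th percentile of tested genes. In S phase, Mcm6 stood highest at 207 ± 24.2 FPKM (mean of 6 libraries, with the SD within groups), followed by Rfc2 at 114 ± 12.8. Ccne1 (5.89 ± 1.24) and Gins2 (7.15 ± 0.715) were the lowest and the only ones below the median tested gene. In G2 and M phase, Top2a (171 ± 10.6) and Mki67 (129 ± 9.13) stood highest and Ccnb1 (13.4 ± 1.07) and Plk1 (15.6 ± 1.56) lowest. A level in a bulk library cannot tell apart fewer cells in a phase and less RNA per cell.

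**Figure D3:**
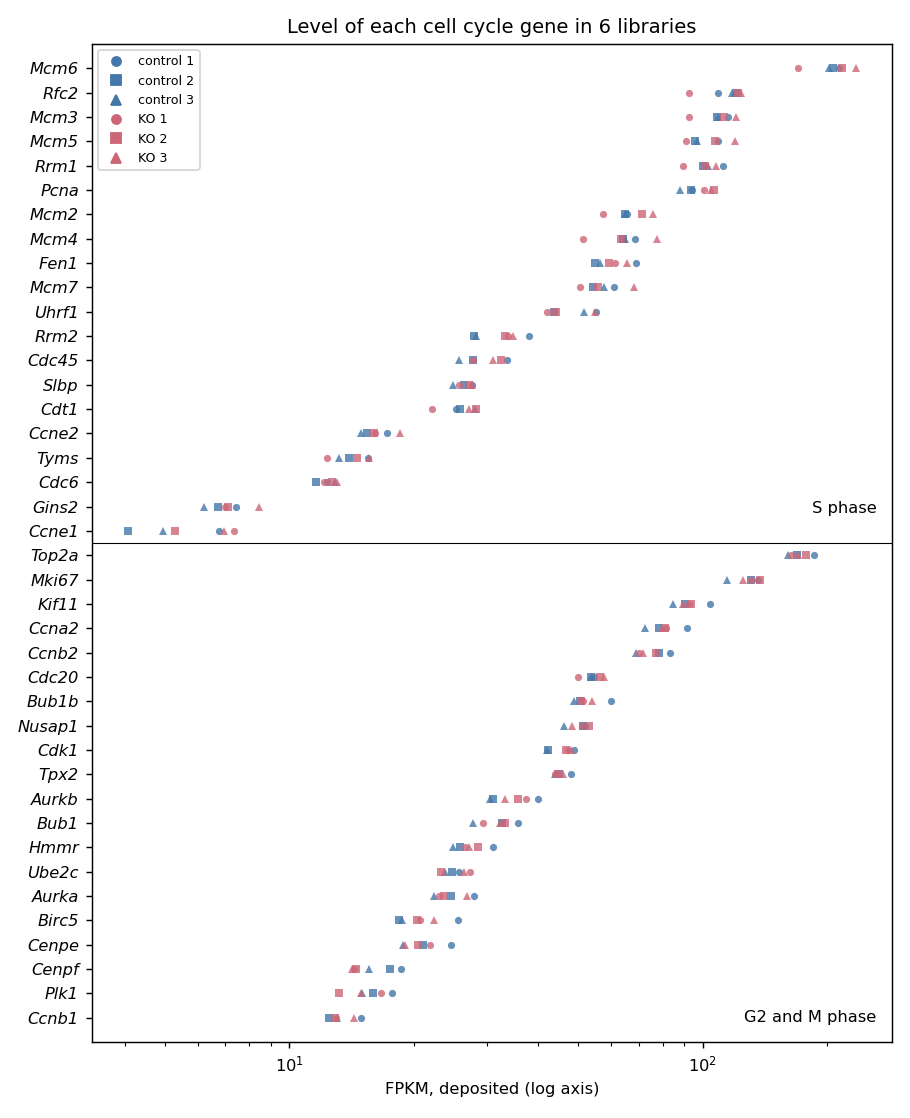
Deposited FPKM (log axis) of each gene in the 3 control (blue) and 3 KO libraries (red), with symbols for replicate numbers 1 to 3, ordered by mean level within S phase (top) and G2 and M phase (bottom). The genes span 5.89 to 207 FPKM, and libraries of both groups intermingle at almost every gene.

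Values by library are given as CPM, the count scaled to library size with TMM factors, for control libraries 1, 2 and 3 and then KO libraries 1, 2 and 3. CPM compares libraries and not genes. Each fold change is KO over control with its standard error (SE), and each adjusted p is edgeR's over all genes tested.

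The 6 MCM helicase genes had fold changes near 0 and a shared order among the KO libraries. Mcm6, a subunit of the hexamer (ENSMUSG00000026355, chromosome 1, 128331590 to 128359664 in GRCm38), had 634, 590.2 and 583 CPM in the control and 515, 613 and 672 in the KO. The KO libraries thus held both its lowest and its highest value, and the log2 fold change was -0.0063 ± 0.11 (SE; adjusted p 0.9995). Mcm5 had 383, 322 and 329 CPM against 327, 356 and 404 (0.072 ± 0.11, adjusted p 0.9995). All 6 genes were highest in KO library 3, and 5 were lowest in KO library 1, the exception being Mcm5, lowest in control library 2. The fold changes of Mcm2 (0.060), Mcm3 (-0.036), Mcm4 (-0.046) and Mcm7 (0.0072) were as small, and no interval of the 6 went beyond 0.783-fold or 1.26-fold.

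The loaders and activators of that helicase had fold changes of both signs, none past the test. Gins2, a subunit of GINS, had 31.3, 27.1 and 25.3 CPM in the control and 30.04, 28.3 and 34.0 in the KO (0.14 ± 0.13, adjusted p 0.9995). Cdc45, its partner in the active helicase, had 77.7, 61.6 and 57.4 against 65.7, 71.2 and 68.9 (0.066 ± 0.13, adjusted p 0.9995). For Cdc45 the control libraries spanned the whole KO range. Cdc6 (0.043) and Cdt1 (-0.030), the licensing factors, differed by less than their SE of 0.085 and 0.0995.

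Pcna, the sliding clamp that holds DNA polymerase on its template, was the S phase gene whose groups did not overlap (ENSMUSG00000027342, chromosome 2, 132249162 to 132253314). It had 232, 222 and 209.8 CPM in the control and 253, 248 and 248 in the KO, so every KO library lay above every control library by a small margin. The log2 fold change was 0.17 ± 0.072, with an unadjusted p of 0.045 and an adjusted p of 0.9995. All genes tested had such a separation upward in 3.43% of cases, and 1 of the 20 S phase genes and 0 of the 20 G2 and M phase genes did. Pcna has annotated pseudogenes (Pcna-ps1 and Pcna-ps2), so its count is uncertain to the extent that reads could be shared. The same holds for Tyms, Ccnb1 and Ccnb2, which have annotated pseudogenes too. Rfc2, of the complex that loads the clamp, had 169.7, 180.2 and 177 CPM against 148, 179 and 185 (-0.042 ± 0.099, adjusted p 0.9995). Fen1, the nuclease that trims lagging strand flaps, had a fold change of 0.044.

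Genes of deoxynucleotide supply and of the E cyclins varied more between libraries of a group than between groups. Rrm1, the large subunit of ribonucleotide reductase, had 459, 393 and 408 CPM in the control and 375, 394 and 424 in the KO (-0.0796 ± 0.093, adjusted p 0.9995). Rrm2, its small subunit, had 0.11, and Tyms, thymidylate synthase, -0.010. Ccne1, a cyclin that activates Cdk2 at the entry to S phase, had 18.5, 10.7 and 13.1 CPM against 20.5, 13.7 and 18.2. It had the largest fold change of the 40 (0.31) with the widest SE (0.24; adjusted p 0.9995), on 93 to 170 counts a library. Within each pair of equal replicate number its KO library was higher, by 0.15, 0.35 and 0.47 on the log2 scale. The same held for 15.1% of all genes tested. Ccne2, the second E cyclin, had 61.7, 53.2 and 51.8 CPM against 59.0, 54.4 and 63.8 (0.088 ± 0.11, adjusted p 0.9995).

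The remaining pair of S phase genes acts on chromatin and on histone mRNA, and neither passed the test. Uhrf1, which carries DNA methylation through replication, had 241, 183 and 218 CPM in the control and 187, 183 and 231 in the KO (-0.097 ± 0.13, adjusted p 0.9995). Slbp, the protein that binds the stem-loop of histone mRNA, had a fold change of 0.029.

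In G2 and M phase, Cdk1 and its cyclins stayed close to 0. Cdk1, the kinase that drives entry into mitosis, had 173, 143.6 and 143.7 CPM in the control and 171, 157 and 163.5 in the KO (0.093 ± 0.096, adjusted p 0.9995). Ccna2, cyclin A2, had 329, 271 and 253 against 299, 277 and 276.5, with a fold change of -5.7e-04 ± 0.11 (adjusted p 0.9995). The control libraries spanned the KO range for both genes. The B cyclins Ccnb1 (-0.0064) and Ccnb2 (-0.076) lay near 0 too.

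Other mitotic kinases gave small differences of both signs. Plk1, polo-like kinase 1, had 39.98, 34.7 and 32.7 CPM against 38.5, 28.3 and 32.4 (-0.12 ± 0.14, adjusted p 0.9995). It was lower in the KO in all 3 pairs of equal number (-0.055, -0.29 and -0.016 on the log2 scale), as were 16.5% of all genes tested. Aurkb, the kinase of the chromosomal passenger complex, had 121, 90.2 and 89.6 against 115, 102 and 96.5 (0.063 ± 0.14, adjusted p 0.9995). Control library 1 was highest for both. Aurka (-0.031), the spindle pole kinase, and Birc5 (0.012), survivin, were closer to 0.

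Genes of the spindle checkpoint, of the anaphase-promoting complex and of the spindle itself had fold changes within 0.1 of 0 on the log2 scale. Ube2c, the ubiquitin-conjugating enzyme of that complex, had 68.8, 63.4 and 61.6 CPM in the control and 74.5, 58.9 and 67.9 in the KO (0.055 ± 0.11, adjusted p 0.9995). Cdc20, its activator, had 104, 98.9 and 99.8 against 97.9, 102 and 106 (0.016 ± 0.074, adjusted p 0.9995), with an interval of 0.897-fold to 1.14-fold. The checkpoint kinases Bub1 (-0.022) and Bub1b (-0.031) lay as near to 0. Tpx2, a microtubule nucleation factor, had 229.9, 207 and 204 CPM against 215, 203 and 212 (-0.025 ± 0.077, adjusted p 0.9995). Kif11, the motor that separates spindle poles, had 515, 429.5 and 405 against 467, 439 and 425 (-0.019 ± 0.11, adjusted p 0.9995). For Kif11 the control libraries spanned the KO range. Nusap1 (0.027) and Hmmr (0.0078), both microtubule-binding proteins, completed the group.

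Cenpf, a large kinetochore and nuclear matrix protein, was the gene furthest below 0 (ENSMUSG00000026605, chromosome 1, 189640606 to 189688086). It had 217, 196 and 176 CPM in the control and 170.1, 160.5 and 159 in the KO, so every KO library lay below every control library. The log2 fold change was -0.27 ± 0.093 with an unadjusted p of 0.023, the smallest of the 40, and an adjusted p of 0.977. With the replicate number as a block the fold change was -0.26 and the adjusted p 0.226. All genes tested had such a separation downward in 4.79% of cases, and 0 of the 20 S phase and 1 of the 20 G2 and M phase genes did. Cenpe, the kinetochore motor, had 197, 162 and 146 CPM against 179, 155.5 and 147 and overlapped between groups (-0.072 ± 0.13, adjusted p 0.9995).

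Both general proliferation markers had fold changes near 0. Mki67, which encodes Ki-67, had 1405, 1296 and 1143 CPM in the control and 1378, 1346 and 1241 in the KO (0.045 ± 0.11, adjusted p 0.9995). Top2a, which untangles DNA before segregation, had 1721, 1498 and 1438 against 1543, 1562 and 1510.4 (-0.013 ± 0.101, adjusted p 0.9995). In both genes the highest and the lowest library belonged to the control.

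The replicate numbers in the titles recur in both groups. Over all genes tested, deviations from the group means correlated between libraries of equal number, most weakly for number 3 (0.219). Over the 40 genes alone the correlations were 0.586, 0.631 and 0.575 for numbers 1, 2 and 3. Between libraries of unequal number they ran from -0.534 to 0.0491. The S phase list medians given below are a different measure, taken around the mean of all 6 libraries. They had opposite signs in the 2 libraries of number 1 and in those of number 3. The comparison was also fitted with the number as a block. With it 0 of the 40 passed, against 1.36% of all genes, and 3 (Pcna, Ccne1 and Cenpf) had an unadjusted p under 0.05, against 9.37%. The smallest adjusted p among them was 0.226. The KO library was higher in all 3 pairs for 4 of the 40 genes, against 15.1% of all genes, and lower in all 3 for 2, against 16.5%.

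The genes varied more by library than by group. Taking log2 CPM minus the mean of that gene in all 6 libraries, the S phase genes had list medians of 0.11, -0.093 and -0.071 in control libraries 1, 2 and 3 and of -0.12, -0.0070 and 0.11 in the KO libraries. The G2 and M phase genes had 0.21, -0.040 and -0.14 in the control and 0.043, -0.027 and -0.028 in the KO. Control library 1 was the highest of the 6 for 17 of 20 G2 and M phase genes, and control library 3 the lowest for 12. KO library 1 was the lowest for 9 of 20 S phase genes and KO library 3 the highest for 10. Medians over all genes tested lay between -0.0037 and 0.0062 in every library. The groups overlapped in both lists.

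**Figure D4:**
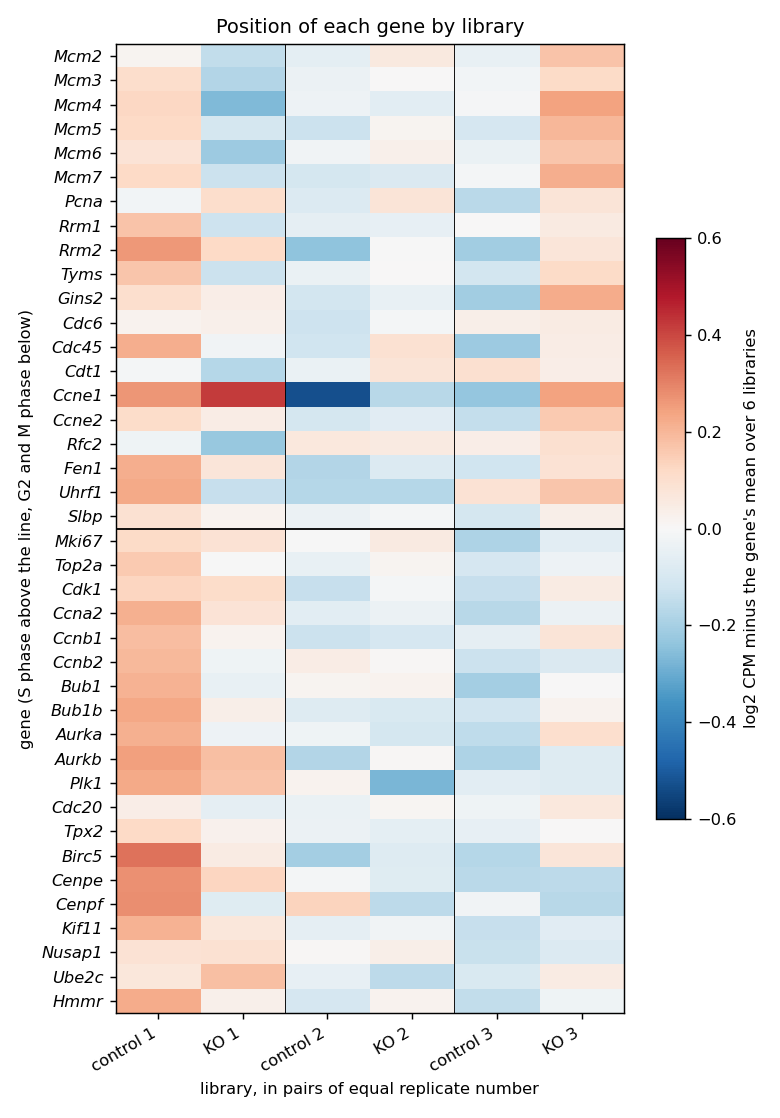
Each cell is log2 CPM of a gene (row) in a library (column, in pairs of equal replicate number) minus the gene's mean over the 6 libraries, S phase genes above the line and G2 and M phase genes below. Red is above and blue below the mean: control 1 is above it for 17 of 20 S phase and 20 of 20 G2 and M phase genes, KO 1 is below it for all 6 Mcm genes, and KO 3 is above it for 20 of 20 S phase and 9 of 20 G2 and M phase genes.

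The balance between the phases also followed the library. The S phase median minus the G2 and M phase median was -0.094, -0.052 and 0.064 in control libraries 1, 2 and 3 and -0.16, 0.020 and 0.14 in the KO libraries. Within each group it was lowest in library 1 and highest in library 3, and the groups overlapped. By pair of equal number, KO minus control, the S phase genes had medians of -0.18, 0.058 and 0.22, with 3, 17 and 19 of 20 genes above 0. The G2 and M phase genes had medians of -0.14, 0.027 and 0.11, with 2, 12 and 18 of 20 above 0. Pairs 1 and 3 thus had opposite signs in both lists.

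The sums of macrophage and stem cell markers followed the replicate number, while plasma cell markers, late neutrophil genes and summed B and T cell markers separated by group. Of 11 macrophage markers 10 were in the table and none was at 0 throughout. Their summed level was 184.1 to 946 CPM in the control and 233 to 735 in the KO, and the highest value of each group was in library 1. The complement gene C1qa had 69.0 and 39.8 CPM in control and KO library 1 and 3.46 to 8.27 in the other libraries. Summed stem cell markers (7 of 7 in the table) were lowest there, at 251 and 207 CPM against 422 to 525 elsewhere. Erythroid markers (10 of 10), whose sum came mostly from the transferrin receptor Tfrc, which dividing cells of other kinds also carry, reached 248 to 408 CPM in the control and 270.2 to 363 in the KO. Plasma cell markers (7 of 7) summed to 3103 to 4494 CPM in the control and 693 to 1777 in the KO. Each of the 7 was lower in every KO library than in every control library, against 4.79% of all genes tested. The sums of neutrophil markers (8 of 8) overlapped, at 2114 to 2941 CPM in the control and 1793 to 2521 in the KO, and came mostly from Mpo, which early myeloid progenitors also express. Of these 8, Ngp, Ltf, Camp, Retnlg, S100a8 and S100a9 were lower in every KO library than in every control library, against 4.79% of all genes tested. Their log2 fold changes ran from -0.86 to -0.64, with adjusted p from 0.37 to 0.59 in edgeR. The granule genes Elane (-0.075) and Mpo (0.084) overlapped between the groups. B and T cell markers (6 of 6) summed to 16.4 to 24.1 CPM in the control and 9.74 to 12.1 in the KO. Singly, 2 of these 6 (Cd79a and Cd2) were lower in every KO library, against 4.79% of all genes tested. In edgeR 0 of these plasma cell, neutrophil and lymphocyte markers passed an adjusted p of 0.05 (smallest 0.068, Derl3). Kit and Ly6a (which encodes Sca-1, 105 to 128 CPM), genes of the sort markers, were present in all 6 libraries. So were Flt3 (205 to 287.5 CPM) and Cd34, which are not among the named sort markers. Kit and Cd34 were lowest in control and KO library 1. Kit had 242 and 243 CPM there against 305 to 387 elsewhere, and Cd34 had 750 and 650 against 966 to 1014. The part of these cells in the cell cycle values was not tested.

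**Figure D5:**
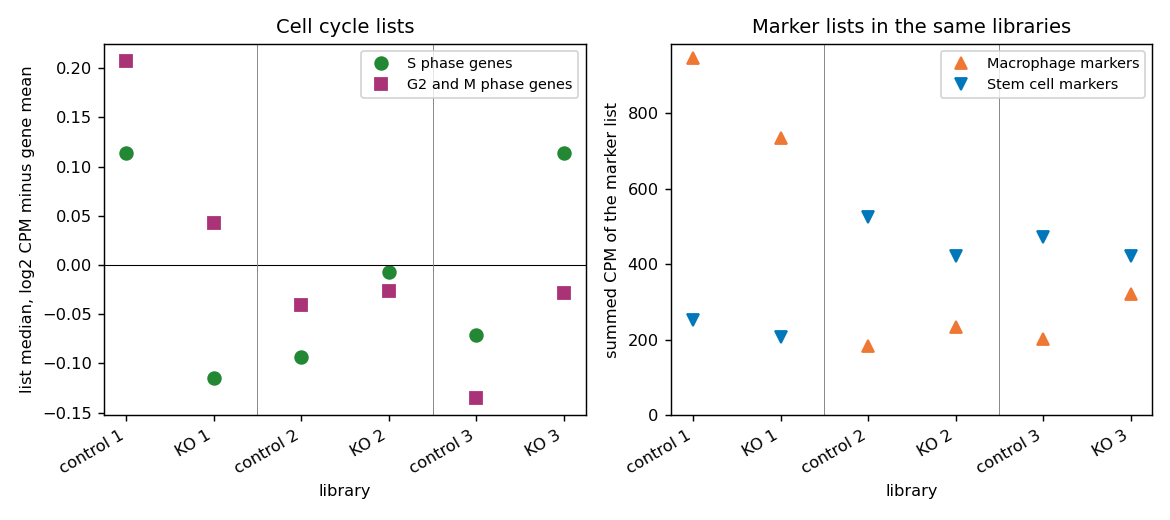
Left, the median of the S phase (green circles) and G2 and M phase genes (purple squares) in each library, as log2 CPM minus the gene mean; right, the summed CPM of macrophage (orange) and stem cell markers (blue) in the same libraries. Number 1 libraries have macrophage sums of 946 (control) and 735 CPM (KO) against 184.1 to 322 in the others. Their S phase medians lie at 0.11 in control 1 and -0.12 in KO 1, and their G2 and M phase medians at 0.21 and 0.043.

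Leaving out the number 1 libraries changed the picture of separation but not the calls. Without both of them, a setting chosen after seeing the data, the list medians were 0.14 for S phase and 0.070 for G2 and M phase. Of the 40 genes, 22 did not overlap between the groups of 2, against 34.2% of all genes in either direction. Of the 22, 20 were higher and 2 lower in the KO, and the share of all genes in each direction was not counted. None of the 40 passed in that comparison (smallest adjusted p among them 0.628 in edgeR, with 5 of them under an unadjusted 0.05), while 27 of all genes tested did. Without control library 1 alone, 16 did not overlap, against 24.7% of all genes, and without KO library 1 alone 5, against 15.7%. Without both libraries of number 3 the medians were -0.027 and -0.056, and 5 genes did not overlap, against 29.5%. The sign of both list medians depended on which pools were included. Pcna and Cenpf, separated with all 6 libraries, stayed so in each of these settings. Leaving out libraries can hardly undo a separation, so this adds nothing on the 2 genes.

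Further genes of the same machinery gave no call either. Of 112 further cell cycle genes in 7 lists, 110 were tested, and 0 passed in edgeR with or without the block, in DESeq2 or in limma-voom. Under an unadjusted 0.05 there were 0 in edgeR, DESeq2 and limma-voom and 1 (Cdkn2d) with the block. Their median was 0.0054, with 60 above and 50 below 0. E2f1, the transcription factor of S phase genes, had 16.5, 16.9 and 15.5 CPM in the control and 19.6, 18.2 and 18.3 in the KO (0.198 ± 0.12, adjusted p 0.9995). It was 1 of 3 genes, with E2f2 and the replication protein Rpa3 (0.16), that lay higher in every KO library, 3 of the 110 against 3.43% of all genes tested.

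Regulators upstream of the wave included the gene with the smallest p of the 110, Cdkn2d, an inhibitor of Cdk4 and Cdk6. It had 22.4, 15.6 and 17.4 CPM in the control and 26.8, 21.1 and 21.2 in the KO (0.32 ± 0.18, adjusted p 0.9995). Ccnd1, cyclin D1, had 109.7, 64.5 and 69.9 against 203, 72.5 and 58.7 (0.45 ± 0.46, adjusted p 0.9995). Its value in KO library 1 stood far above the others. Macrophage markers were high in both number 1 libraries, at 946 CPM in the control and 735 in the KO, and a link to Ccnd1 was not tested. The other lists' genes of smallest p were the separase gene Espl1 (0.17), the Cdk1-inhibiting kinase Pkmyt1 (0.13) and Lin52 of the DREAM complex (-0.099). Cdkn2a and Cdkn2b were too low to test, with 0 to 1 and 1 to 3 counts a library.

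Totals were 6843129 to 9443615 counts a library, of which the 40 genes took 0.88% to 1.007%. The lowest count of any of them in any library was 93, so a count of 0, which allows up to 3 counts or 0.326 to 0.46 CPM, set no limit here. Libraries of the same group were further apart than counting noise allows, with a chi-square per degree of freedom of 7.8 or more over all tested genes. Of the 40 genes, 19 overlap another annotated gene in GENCODE M21, 16 on the opposite strand. The sources used here do not say whether counting used strand, so reads of those neighbours cannot be told apart from theirs.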

How the data were processed

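RNA-seq gene counts of 6 libraries (3 per group) were deposited by the authors as whole numbers without normalization, per the file headers. FPKM values and the authors' own comparison (log2 fold change and adjusted p-value) were deposited beside them, per the file headers. Novoalign 2.08.01, DESeq2 1.10.1 and mm10 are listed in the submitters' processing notes; how reads were assigned to genes, with which gene models and whether by strand, is not given in the sources used here. Groups and replicate numbers came from the sample titles.

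Counts were fitted with edgeR 4.0.16 in R 4.3.3 (TMM, filterByExpr with a minimum count of 10 and a minimum total of 15, quasi-likelihood F test, two-sided) on the group alone. P-values were adjusted by Benjamini-Hochberg over all 13217 genes tested, with a threshold of 0.05. SEs came from the F statistic, and log2 CPM used a prior count of 2. DESeq2 1.42.0, limma-voom (limma 3.58.1) and a replicate block were alternatives. FPKM served only to compare levels between genes.

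Equal replicate numbers were treated as pairs from these data alone. Over all tested genes, deviations from the group means correlated at 0.573, 0.526 and 0.219 for numbers 1, 2 and 3. Between libraries of unequal number the correlations ran from -0.512 to 0.133. Nothing in the labels tells what libraries of equal number have in common. Members, gene lists and motifs were chosen with earlier results of these data known. Per library values are given for the gene of smallest p and of highest FPKM in each functional group. Data were also simulated for this comparison (13053 genes tested, 50 changed at each fold, drawn from genes within the CPM range of the 40). The test recovered 2% of genes changed 1.25-fold, 32% at 1.5-fold, 72% at 2-fold and 98% at 4-fold. Counts and spread were not matched to the 40 genes, whose median SE was 0.109 against 0.15 for all genes tested. These shares are therefore not the power for the 40 genes.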

Additional observations from a re-analysis of the deposited data

How the results depend on the processing

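The count of 0 genes past the threshold held with other size factors, DESeq2, limma-voom, no low-count filter, a filter of 1 CPM in all 6 libraries, the replicate block, a threshold of 0.1 and each library left out in turn. With 1 library left out, calls among all genes tested were few, from 0 (without control library 1 or 3) to 27 (without KO library 3). A count of 0 among the 40 genes therefore says little in those settings. Adding the replicate block changed no call among the 40 genes: the S phase median was 0.038, the G2 and M phase median -0.0055 and the smallest adjusted p 0.226. Both list medians and their difference moved by less than the spread between replicates (0.114, 0.128 and 0.121 on the log2 scale) in every setting. That spread is the SD of values of single libraries, which leaving out 1 of 3 can hardly exceed, so it is no sign of stability there. Leaving out libraries gave -0.027 to 0.14 for S phase, -0.060 to 0.089 for G2 and M phase and -0.0072 to 0.086 for the difference. The number of genes whose groups did not overlap, 2 with all libraries, ran from 2 to 22 when libraries were left out; fewer libraries overlap less easily. Leaving out both libraries of a number was chosen after seeing the data. Of 600 fold changes of single genes under 15 alternatives, 86 changed sign and none passed the threshold. They belonged to 33 genes with a fold change of at most 0.097 in size, and 83 of the 86 came from leaving out libraries. Only Ccna2 changed sign otherwise, to 4.7e-05 with other size factors, 0.0070 with limma-voom and 0.0074 with the replicate block. Log2 fold changes then ran from -0.017 to 0.17 for Mcm2, -0.12 to 0.085 for Mcm3, -0.21 to 0.11 for Mcm4, -0.042 to 0.22 for Mcm5, -0.11 to 0.13 for Mcm6, -0.11 to 0.13 for Mcm7 and -0.14 to 0.032 for Rrm1. They ran from -0.13 to 0.14 for Tyms, -0.0049 to 0.079 for Cdc6, -0.019 to 0.24 for Cdc45, -0.11 to 0.046 for Cdt1, -0.014 to 0.17 for Ccne2, -0.10 to 0.055 for Rfc2 and -0.033 to 0.18 for Fen1. Ranges were -0.21 to 0.046 for Uhrf1, -0.022 to 0.087 for Slbp, -0.024 to 0.12 for Mki67, -0.059 to 0.070 for Top2a, -0.072 to 0.12 for Ccna2, -0.071 to 0.094 for Ccnb1 and -0.15 to 0.010 for Ccnb2. The next were -0.12 to 0.10 for Bub1, -0.11 to 0.090 for Bub1b, -0.16 to 0.089 for Aurka, -0.0075 to 0.22 for Aurkb, -0.017 to 0.072 for Cdc20, -0.058 to 0.034 for Tpx2 and -0.094 to 0.21 for Birc5. The last were -0.16 to 0.061 for Cenpe, -0.082 to 0.092 for Kif11, -0.024 to 0.080 for Nusap1, -0.022 to 0.14 for Ube2c and -0.055 to 0.14 for Hmmr. The other 7 kept their sign in all 15, though most moved by over 1.5 times when libraries were left out: 0.14 to 0.21 for Pcna, 0.021 to 0.29 for Rrm2, 0.0025 to 0.25 for Gins2, 0.14 to 0.56 for Ccne1, 0.049 to 0.19 for Cdk1, -0.23 to -0.021 for Plk1 and -0.33 to -0.19 for Cenpf. In the simulated data, with 3 pools a group, 1.25-fold changes were mostly beyond detection.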
